A study of Mus musculus with 4 samples.

Results

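Pulmonary surfactant is the film of phospholipid and protein that lowers surface tension in the alveoli. Alveolar type 2 cells assemble it in lamellar bodies, which are lysosome-related storage organelles, and release it by exocytosis. The hydrophobic surfactant proteins B and C organise the lipid film, the collectins A and D bind microbes and sugars, and transporters and proteases of the lamellar body load the lipid and trim the proproteins. The 10 genes described here were chosen by name from the deposited gene table, as 10 of its 43346 rows: the surfactant proteins Sftpa1, Sftpb, Sftpc and Sftpd, the lamellar body and apical membrane genes Abca3, Lamp3 and Slc34a2, the proprotein proteases Napsa and Ctsh, and the lysozyme gene Lyz2. All 10 passed the filter on low counts, with 20872 genes tested in all.

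Polyadenylated RNA of lung epithelial cells was sequenced from mice that over-express the cytokine IL-33 from a transgene and from control mice. Libraries B and E are transgenic replicates 1 and 2, and libraries D and F are control replicates 1 and 2, so n = 2 per group. These numbers follow the order of deposit and pair no libraries. The promoter of the transgene, the strain, the age and the number of mice per library are not stated, as far as the sources used here go. A p-value here therefore reflects only the spread of these libraries, part of which may be technical. Libraries of the same group differed in their sex-linked RNA, as given below. The question the design poses is whether these genes differ between transgenic and control lungs.

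Gene counts summed to between 76120696 and 87723745 per library. Il33, in counts scaled to a library of 1000000 (CPM), stood at 1723 (B) and 874 (E) in transgenic libraries and at 117 (D) and 108 (F) in controls, which is as the labels say. The labels name epithelial cells and the series title lung tissue: the epithelial genes Sftpc and Scgb1a1 were abundant, but so were the endothelial genes Cdh5, from 1115 CPM in B to 1915 CPM in F, and Pecam1, from 824 CPM in B to 1326 CPM in F. Library B carried female and library D male RNA by Xist (698 CPM in B and 1.19 CPM in D) and Ddx3y (0.0662 CPM in B and 112 CPM in D). RNA of both sexes was present in E (Xist 811 CPM, Ddx3y 9.78 CPM) and in F (Xist 356 CPM, Ddx3y 57.1 CPM). Of 5 sex-linked genes, Xist lay above both controls in both transgenic libraries. The other 4, on the Y chromosome, lay below both controls. Sex therefore overlaps with genotype, and its part in the results below was not tested.

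The promoters of 4 genes are shown: the surfactant protein genes Sftpa1 and Sftpb, and the pair of lysozyme genes, closely related neighbours on chromosome 10. Whether these letters bear on the levels described below was not tested. Each line gives the 250 bases before the RefSeq start of transcription (GRCm38.p6), 5′ to 3′ on the gene's own strand. Capitals mark any match, on either strand, to CACTTGA (an NK2-type homeodomain element) and its variant form CACTTAA, GCNCTNNAG (a form of element described for NKX2-1, also called TTF-1, in surfactant promoters), TGTTTAC (a forkhead element) and its variant form TGTTTGC, with TATAAA for the TATA box.
Sftpa1: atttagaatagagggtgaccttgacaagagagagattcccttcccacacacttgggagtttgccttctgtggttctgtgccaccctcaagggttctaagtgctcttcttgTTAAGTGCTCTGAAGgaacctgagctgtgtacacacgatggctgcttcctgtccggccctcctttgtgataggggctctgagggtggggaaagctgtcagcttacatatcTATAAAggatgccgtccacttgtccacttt
Sftpb: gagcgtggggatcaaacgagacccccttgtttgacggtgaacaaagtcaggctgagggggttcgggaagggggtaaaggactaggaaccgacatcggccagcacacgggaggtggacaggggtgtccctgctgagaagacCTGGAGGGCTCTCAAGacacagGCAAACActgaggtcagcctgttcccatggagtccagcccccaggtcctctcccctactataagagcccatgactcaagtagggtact
Lyz2: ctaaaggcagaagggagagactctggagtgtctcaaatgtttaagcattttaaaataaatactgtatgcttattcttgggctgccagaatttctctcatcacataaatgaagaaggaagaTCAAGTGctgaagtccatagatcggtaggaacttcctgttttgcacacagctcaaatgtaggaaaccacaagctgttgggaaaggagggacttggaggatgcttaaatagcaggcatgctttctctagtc
Lyz1: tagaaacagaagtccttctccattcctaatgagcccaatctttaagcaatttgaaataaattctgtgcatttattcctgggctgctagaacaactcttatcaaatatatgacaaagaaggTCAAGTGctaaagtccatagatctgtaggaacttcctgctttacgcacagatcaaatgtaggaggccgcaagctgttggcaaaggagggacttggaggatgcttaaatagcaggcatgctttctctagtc

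Of the 10 genes, 6 had a promoter in this table. Sftpa1, at chr14:41131538-41131787 on the plus strand, held 1 NK2-type match that overlaps 1 GCNCTNNAG match, and a TATA box 30 bases before the start (-30). Sftpb, at chr6:72304360-72304609 on the plus strand, held 2 overlapping GCNCTNNAG matches and 1 forkhead match at -88. Lyz2, at chr10:117282273-117282522 on the minus strand, and Lyz1, at chr10:117292869-117293118 on the minus strand, each held 1 NK2-type match at -130. In a global alignment these 2 lysozyme promoters shared 200 of 250 bases (80%). NK2-type letters were found in 2 of the 6 promoters, GCNCTNNAG in 2, forkhead letters in 2 (Sftpb and Lamp3) and TATAAA in 1. The promoters of Abca3 and Slc34a2 held none of these letters. Among all 32851 promoters of the same length the shares with a match were 4.67%, 14.2%, 7.29% and 12.4% in that order. A match of these letters is a description and not a site.

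No gene of the surfactant and lamellar body group passed the test between genotypes. Of the 10, 9 had a log2 fold change above 0, where 49.6% of all genes tested did, with a median of 0.21 against -0.0013 over all genes tested, and all 10 overlapped between the groups. Of all genes tested, 11.9% lay above both controls in the 2 transgenic libraries and 12% below both. The order of the libraries was B, D, E, F from high to low for 9 of the 10, a transgenic library at the top and a control library at the bottom, with control library D above transgenic library E. This order was found in 10.1% of all genes tested. At an adjusted p of 0.05 in edgeR's quasi-likelihood test 0 of the 10 were called (adjusted p = 1 for each), where 0% of all genes tested were called. Il33, with a log2 fold change of 3.53 (SE 0.37), was not called in this test either. The absence of a call here therefore does not show the absence of a difference. At an unadjusted p under 0.05 there were 0 of the 10 and 1.29% of all genes. DESeq2 and limma-voom called 0 of the 10 as well.

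**Figure D1:**
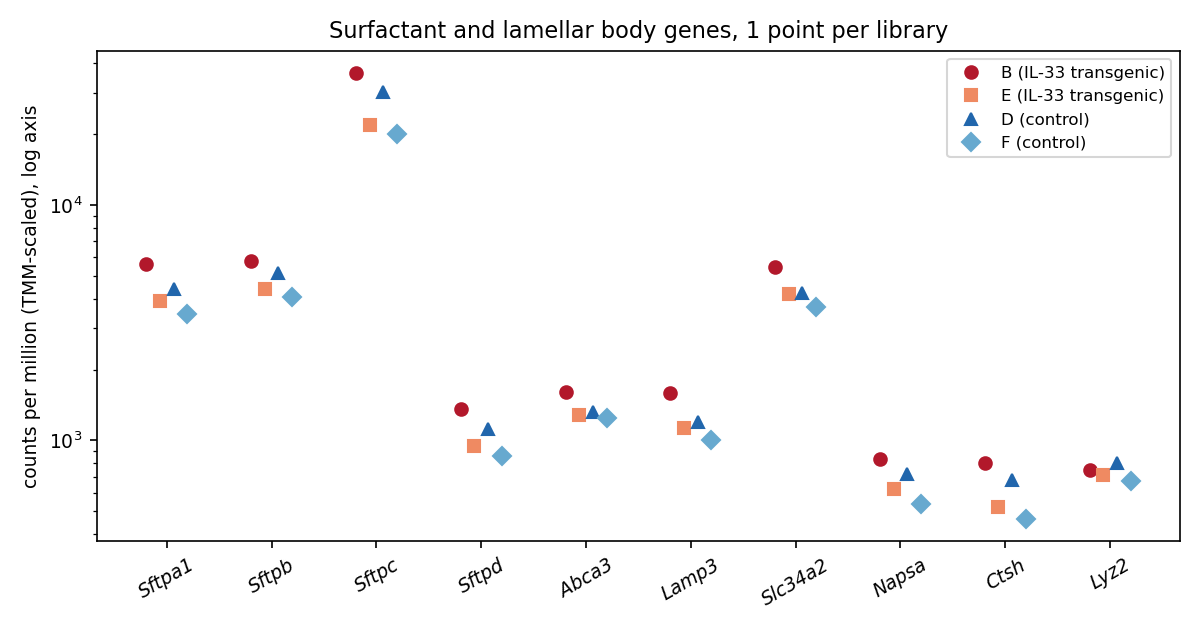
TMM-scaled CPM (log axis) of the 10 genes, with 1 point per library. For every gene but Lyz2 the points fall in the order B, D, E, F, so the transgenic libraries B and E lie on either side of control library D.

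Sftpc, which encodes the small hydrophobic protein that is specific to type 2 cells, led every library. Its gene (ENSMUSG00000022097) lies on chromosome 14 from 70520941 to 70524081 (GRCm38). Its counts were 2744186 (B), 2424802 (D), 1935053 (E) and 1706833 (F). They made up 3.61% of all gene counts in library B (95% Wilson interval 3.60% to 3.61%), 3.0% in library D (2.999% to 3.01%), 2.21% in library E (2.20% to 2.21%) and 2.0% in library F (1.997% to 2.003%). These intervals cover counting error only, and are far narrower than the gaps between libraries of 1 group. In CPM, Sftpc stood at 36313 (B), 21828 (E), 30079 (D) and 20030.3 (F). Transgenic libraries averaged 29071 ± 10242 CPM and controls 25054 ± 7105 CPM (SD, n = 2 each). The log2 fold change was 0.21 (SE 0.44, adjusted p = 1), with a 95% interval from -0.91 to 1.34, the widest of the 10 genes. The ratio of the 2 transgenic libraries to each other (B over E) was 1.66, and that of the 2 controls (D over F) was 1.502, both larger than the fitted ratio between genotypes of 1.16. In bulk RNA, fewer type 2 cells and less of a transcript per cell cannot be told apart.

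Sftpb encodes the saposin-like protein without which neither lamellar bodies nor the surface film form. Its gene (ENSMUSG00000056370) lies on chromosome 6 from 72304610 to 72314371. It stood at 5778 (B), 4391 (E), 5163 (D) and 4068 CPM (F), so B was highest and F lowest with E under D. Transgenic libraries averaged 5085 ± 981 CPM and controls 4616 ± 774 CPM (SD, n = 2 each; log2 fold change 0.14, SE 0.26, 95% interval -0.54 to 0.82).

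The collectin genes Sftpa1 and Sftpd had the same order of libraries. Sftpa1 (ENSMUSG00000021789, chromosome 14, 41131782 to 41136452) stood at 5610.3 (B), 3915 (E), 4416 (D) and 3451 CPM (F). Its log2 fold change was 0.28 (SE 0.28, 95% interval -0.45 to 0.999). Sftpd (ENSMUSG00000021795, chromosome 14, 41172212 to 41185198) stood at 1359.7 (B), 943 (E), 1119.7 (D) and 855 CPM (F). Its log2 fold change was 0.22 (SE 0.25, 95% interval -0.42 to 0.87). In the deposited table the mannose-binding lectin gene Mbl1, another collectin, lies between these 2 genes, from 41151456 to 41158959, and had between 170 and 306 counts per library where Sftpa1 had between 294102 and 423972. Per length, in reads per kilobase of gene length and 1000000 reads (RPKM), the level of Sftpa1 was 1.91 (B), 1.83 (D), 1.93 (E) and 1.87 (F) times that of Sftpd, so the 2 lung collectins kept nearly the same proportion in all 4 libraries.

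Abca3 is the lamellar body transporter that pumps phospholipid into the organelle. Its gene (ENSMUSG00000024130) lies on chromosome 17 from 24351950 to 24410201. It stood at 1603 (B), 1288 (E), 1318 (D) and 1240.3 CPM (F), so B stood apart and the other 3 libraries lay close together. Transgenic libraries averaged 1446 ± 223 CPM and controls 1279 ± 55.3 CPM (SD, n = 2 each; log2 fold change 0.18, SE 0.18, 95% interval -0.29 to 0.65). Lamp3, also called DC-LAMP, is a membrane glycoprotein of lamellar bodies and, as described in human cells, of mature dendritic cells (ENSMUSG00000041247, chromosome 16, 19653381 to 19706365). It stood at 1592 (B), 1124 (E), 1201 (D) and 1005 CPM (F). Its log2 fold change of 0.30 (SE 0.23, 95% interval -0.29 to 0.89) was the largest of the 10. Slc34a2, the apical sodium-phosphate cotransporter that takes up phosphate from surfactant lipid (ENSMUSG00000029188, chromosome 5, 53038082 to 53071664), stood at 5424 (B), 4178 (E), 4228 (D) and 3695 CPM (F). For Slc34a2 transgenic library E and control library D differed by little (E over D 0.988), and the log2 fold change was 0.28 (SE 0.24, 95% interval -0.34 to 0.90).

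Of the dendritic cell markers, Ccr7 stood between 1.09 and 2.98 CPM, while Ccl22 had between 0 and 36 counts and Apol7c had 0 counts in every library.
The list of 10 markers of mature dendritic cells, 7 of them tested, summed to 170 (B), 202 (E), 211 (D) and 219.8 CPM (F), most of it from Fscn1 and Zbtb46. Fscn1 stood between 84.7 and 123 CPM and Zbtb46 between 35.8 and 56.3 CPM, both lowest in B, while Cd83 was highest in B (24.4 CPM, against 17.6 to 18.9 in the others). Of the 7 tested, 3 (Ccr7, Cd83 and Flt3) lay above both controls in the 2 transgenic libraries, beside 11.9% of all genes tested. Below both controls lay 2 (Fscn1 and Relb), beside 12% of all genes tested. The part of these cells in the Lamp3 values was not tested.

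The aspartic protease napsin A and cathepsin H take part in cleaving the surfactant proproteins on their way to the lamellar body. Napsa (ENSMUSG00000002204, chromosome 7, 44572432 to 44586862) stood at 833 (B), 621 (E), 717 (D) and 537 CPM (F), with a log2 fold change of 0.21 (SE 0.23, 95% interval -0.37 to 0.80). Ctsh (ENSMUSG00000032359, chromosome 9, 90054152 to 90076089) stood at 803 (B), 523 (E), 679 (D) and 466 CPM (F), with a log2 fold change of 0.21 (SE 0.29, 95% interval -0.53 to 0.95). For both proteases the order was again B, D, E, F.

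Lyz2 was the exception. It encodes the lysozyme that type 2 cells secrete and that macrophages and neutrophils also make (ENSMUSG00000069516, chromosome 10, 117277334 to 117282274). It stood at 746 (B), 714 (E), 801 (D) and 670.2 CPM (F), so that the transgenic libraries lay between the 2 controls. Transgenic libraries averaged 730.2 ± 22.8 CPM and controls 736 ± 92.6 CPM (SD, n = 2 each; log2 fold change -0.01, SE 0.16, 95% interval -0.41 to 0.39). The highest library was 1.195 times the lowest, the smallest range of the 10, against 1.81 for Sftpc. The alveolar macrophage genes Marco and Siglecf stood between 0.844 and 6.18 CPM and between 0.595 and 6.24 CPM, and both were lowest in D. The 15 alveolar macrophage markers, all tested, summed to 272 (B), 493 (E), 266 (D) and 470 CPM (F), of which Car4, also made by capillary endothelium, was the largest single part. Of these 15, 12 had log2 fold changes above 0 (median 0.77), beside 49.6% of all genes tested. Chil3, a chitinase-like protein of these macrophages, was also lowest in D (3.91 CPM) and highest in E (60.5 CPM), whereas Car4, Abcg1 and Fabp4 were lowest in B. Of the neutrophil markers 11 of 12 were tested, and these summed to 23.2 (B), 44.5 (E), 13.7 (D) and 19.7 CPM (F). Of those 11, 9 lay higher in the 2 transgenic libraries than in either control, beside 11.9% of all genes tested. The part of these cells, and of the monocytes and interstitial macrophages described below, in the Lyz2 values was not tested.

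Lyz1, the neighbouring paralog and not 1 of the 10, was more abundant than Lyz2 and behaved otherwise. Lyz1 (ENSMUSG00000069515, chromosome 10, 117287796 to 117292868) stood at 2587 (B), 2124 (E), 1946 (D) and 1554 CPM (F). Both transgenic libraries thus lay above both controls, as they did for 11.9% of all genes tested. The group means were 2355 ± 328 and 1750.02 ± 277 CPM (SD, n = 2 each; log2 fold change 0.43, SE 0.22, adjusted p = 1, 95% interval -0.12 to 0.98). The level of Lyz1 per length was 3.47 (B), 2.98 (E), 2.43 (D) and 2.32 (F) times that of Lyz2. Of the 1267 windows of 50 bases in the Lyz2 transcript, 195 (15.4%) occur without a mismatch in the Lyz1 transcript. How such reads were counted is not stated in these sources, so the split between the 2 genes is uncertain.

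The 4 comparisons of a transgenic with a control library show how the group difference arose. Library B over library D ran from 0.932 (Lyz2) to 1.32 (Lamp3), and 9 of the 10 genes were higher in B. Library B over library F ran from 1.11 (Lyz2) to 1.81 (Sftpc), with all 10 higher in B. Library E over library F ran from 1.04 (Abca3) to 1.16 (Napsa), with all 10 higher in E. Library E over library D went the other way, from 0.726 (Sftpc) to 0.988 (Slc34a2), with all 10 lower in E. Within the groups, B over E ran from 1.05 (Lyz2) to 1.66 (Sftpc) and D over F from 1.06 (Abca3) to 1.502 (Sftpc). For each of the 10, B over E exceeded the fitted ratio between genotypes, which ran from 0.993 (Lyz2) to 1.23 (Lamp3). Without library B the log2 fold change was at or below 0 for 7 of the 10 genes and the median was -0.03, while without library E all 10 were above 0 with a median of 0.45.

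**Figure D2:**
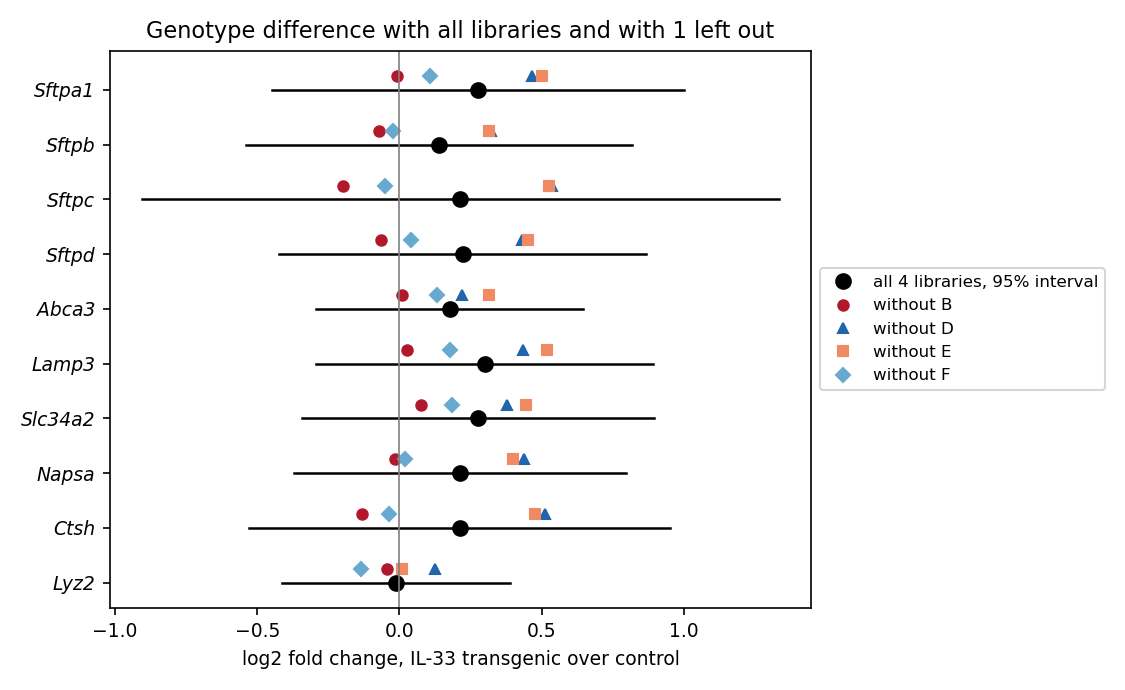
Log2 fold change of each gene, transgenic over control, from the edgeR quasi-likelihood fit: black points with 95% intervals use all 4 libraries, and coloured points leave out 1 library. Every interval includes 0, and leaving out B moves the values of all genes but Lyz2 toward or below 0.

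As a sum, the 10 genes made up 5.96% (B), 3.99% (E), 4.96% (D) and 3.60% (F) of all gene counts. The group means were 4.98% ± 1.39 in transgenic and 4.28% ± 0.966 in control libraries (SD, n = 2 each). The difference of 0.699 percentage points was smaller than either SD, and the exact two-sided permutation test gave p = 0.667, where the smallest p that 2 against 2 libraries can give is 0.333. Leaving out B turned the difference to -0.286 percentage points, leaving out F brought it to 0.0156, and leaving out D or E raised it to 1.38 or 1.68. Sftpc alone took 60.5% of the counts of the 10 genes in B and 60.5% in D, but 55.2% in E and 55.6% in F.

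Per length, the deposited RPKM values gave nearly the same ranking of the 10 genes in every library. Sftpc was first among all 43346 genes in each library, at 27349 ± 7207 RPKM (SD over the 4 libraries). Sftpb followed at 2007 ± 287 RPKM, Sftpa1 at 1238 ± 247, Slc34a2 at 713 ± 112, Sftpd at 656 ± 127, Lyz2 at 472 ± 28.5, Lamp3 at 299.8 ± 58.1, Napsa at 255 ± 44.3, Abca3 at 126 ± 13.8 and Ctsh at 112 ± 25.9. The ranges over the 4 libraries did not overlap between neighbours in this order, with 3 exceptions: Slc34a2 with Sftpd, Lamp3 with Napsa, and Abca3 with Ctsh. Of these, Lamp3 was above Napsa in all 4 libraries, and the other pairs kept their order in 3. The level of Sftpc per length was 15.4 (B), 14.3 (D), 12.2 (E) and 12.0 (F) times that of Sftpb.

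The 10 genes did not move in strict proportion. To see this, the log2 CPM of each gene was set against the mean log2 CPM of the 10 in the same library, which removes the scaling of the library. Sftpc stood 3.84 above that mean in B and 3.81 in D, against 3.55 in E and 3.57 in F. Ctsh showed the same grouping, at -1.66 in B and -1.655 in D against -1.83 in E and -1.86 in F. Abca3 went the other way, at -0.66 in B and -0.70 in D against -0.53 in E and -0.44 in F. Libraries B and D did not overlap with E and F for 6 of the 10: Sftpc, Sftpd and Ctsh were higher in B and D, and Abca3, Slc34a2 and Lyz2 were lower. Measured against the same mean, 74.2% of all genes tested parted the libraries in this way, which is not the division by genotype. The mean log2 CPM of the 10 itself fell from 11.31 (B) and 11.06 (D) to 10.86 (E) and 10.72 (F). A gene with the same CPM in every library is therefore parted in this way too. The share thus follows in part from the centring and is no fair background for the 6. Lyz2 was lowest in B, at -1.76 in B against -1.42 in D, -1.38 in E and -1.33 in F. Napsa (range 0.073), Sftpd (0.08) and Sftpb (0.084) followed the mean most closely.

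Relative to the mean of the 10, 3 genes did not overlap between the genotypes. Lamp3 was higher in both transgenic libraries (-0.67 in B and -0.73 in E) than in both controls (-0.83 in D and -0.75 in F). Sftpa1 was higher too (1.14 in B and 1.07 in E against 1.05 in D and 1.03 in F). Sftpb was lower (1.19 in B and 1.24 in E against 1.27 in D and in F). Measured against the same mean, 2.87% of all genes tested lay higher in both transgenic libraries and 12.8% lay lower in both. These shares also depend on the fall of that mean from B to F, so they are no fair background either. The differences of group means were 0.089, 0.07 and -0.058 on the log2 scale, and they were not tested.

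**Figure D3:**
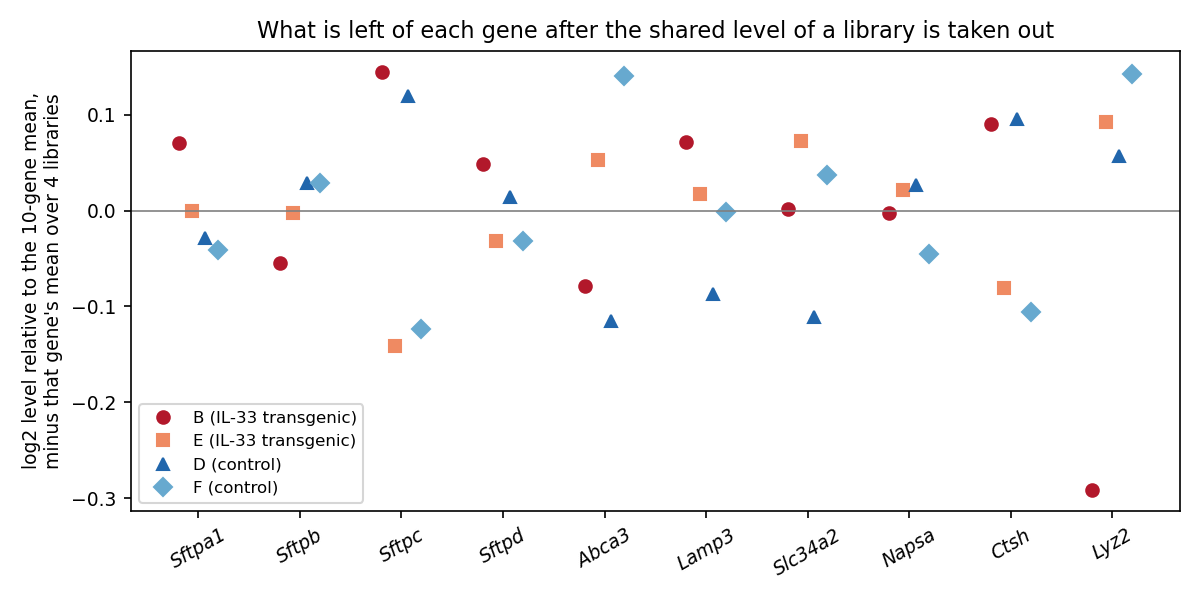
Log2 level of each gene relative to the mean of the 10 genes in the same library, centred on that gene's mean over the 4 libraries. Sftpc, Sftpd, Ctsh, Abca3, Slc34a2 and Lyz2 part libraries B and D from E and F, and Lyz2 in B lies farthest from 0.

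Other genes of surfactant supply were read from lists of pathway genes. None of them passed the test (0 in every list, adjusted p = 1 for each gene named below). Of 16 genes of surfactant phospholipid and fatty acid synthesis, 15 had log2 fold changes above 0 (median 0.15), and 10 had the order B, D, E, F, found in 10.1% of all genes tested. Both transgenic libraries were above both controls for 2 of them, beside 11.9% of all genes tested. These were Acoxl (109 (B), 102 (E), 84.7 (D) and 85.1 CPM (F); log2 fold change 0.31, SE 0.10) and Acaca, the acetyl-CoA carboxylase gene (0.22, SE 0.11). The most abundant was Lpcat1, which remodels phosphatidylcholine into its dipalmitoyl form, at 1342 (B), 989 (E), 1157 (D) and 921 CPM (F). Fasn, the fatty acid synthase gene, had a log2 fold change of 0.13 (SE 0.17) and Scd1, the stearoyl-CoA desaturase gene, one of 0.13 (SE 0.17).

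Of 20 genes of lamellar body biogenesis, trafficking and exocytosis, 16 had values above 0 (median 0.07). In the 2 transgenic libraries 5 of the 20 lay above and 1 below both controls, beside 11.9% and 12% of all genes tested. The order B, D, E, F was found for 2 of the 20, beside 10.1% of all genes. The most abundant were the phospholipid flippase genes Atp11a (857 (B), 705 (E), 662 (D) and 647 CPM (F); log2 fold change 0.25, SE 0.16) and Atp8a1 (771, 552, 548 and 525 CPM in the same order; 0.30, SE 0.20). Ap3d1, a subunit of the AP-3 sorting adaptor, stood between 136 and 146 CPM. Lyst, a regulator of the size of lysosome-related organelles, had a log2 fold change of 0.23 (SE 0.15).

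Of 10 genes of surfactant clearance and pool control, 8 had values above 0 (median 0.06) and 2 lay above both controls in the 2 transgenic libraries, beside 11.9% of all genes tested. These were the GM-CSF receptor gene Csf2ra (7.65 (B), 9.07 (E), 6.28 (D) and 6.10 CPM (F); log2 fold change 0.43, SE 0.17) and the lipid transporter gene Mfsd2a (0.31, SE 0.24). The abundant genes of this list differed in order: Npc2, a sterol carrier of the lysosome, ran from 1412 CPM in B to 953 in F, whereas Adgrf5, a receptor that restrains the surfactant pool and that endothelium also expresses, ran from 1134 CPM in B to 1609 in F. Psap, the prosaposin gene, was 351 (B), 354 (D), 474 (E) and 461 CPM (F).

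Of 14 transcription factors of surfactant genes, 10 had values above 0 (median 0.11). In the 2 transgenic libraries 1 lay above both controls, beside 11.9% of all genes tested, and 6 of the 14 had the order B, D, E, F, beside 10.1%. Nkx2-1, the homeodomain factor of lung epithelium, stood at 262 (B), 208 (E), 242 (D) and 182 CPM (F) (log2 fold change 0.15, SE 0.20). Etv5, which maintains type 2 cells, stood at 683 (B), 509 (E), 556 (D) and 443 CPM (F) (0.25, SE 0.21). Wwtr1, encoding the co-activator TAZ, was lowest in B, at 258 CPM, and highest in F, at 293 CPM. The gene that did not overlap was Stat3 (190.2 (B), 185 (E), 160.03 (D) and 178 CPM (F)). Of the 5 collectins outside the 10 genes, Mbl2 had 0 counts in every library. Colec12 stood between 25.05 and 41.2 CPM, Colec10 between 3.09 and 4.45, Mbl1 between 1.995 and 4.05 and Colec11 between 0.711 and 1.38. In the transgenic libraries Colec10 and Colec11 lay below both controls, as did 12% of all genes tested.

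The marker lists of the cell types differed in their order of libraries. All 17 other markers of type 2 cells had values above 0 (median 0.22), 14 with the order B, D, E, F, beside 10.1% of all genes tested. The list includes Il33, the gene of the transgene. Without Il33 its 16 genes summed to 12380 (B), 9139 (E), 10064 (D) and 8031 CPM (F), the order of the surfactant genes. Cxcl15, the lung chemokine lungkine, was the most abundant, at 4039 (B), 2959 (E), 3084 (D) and 2519.7 CPM (F). The 12 endothelial markers summed to 5248 (B), 6864 (D), 8174 (E) and 8919 CPM (F), and the 12 fibroblast and smooth muscle markers to 1543 (B), 2302 (D), 3201 (E) and 3776 CPM (F). Both lists thus had the reverse order of the surfactant genes, with Col3a1 at 452 CPM in B and 1196 CPM in F. The 12 club and ciliated markers summed to 13340 (B), 11151 (D), 8568 (E) and 8722 CPM (F). The 12 type 1 cell markers summed to between 4290 and 5473 CPM, and the 5 red cell markers to between 14.0 and 52.6 CPM. The 14 monocyte and interstitial macrophage markers summed to 166 (B), 173 (E), 141 (D) and 144 CPM (F). Of these 14, 12 had values above 0 (median 0.49), beside 49.6% of all genes tested. In the 2 transgenic libraries 6 of the 14 lay above and 1 below both controls, beside 11.9% and 12% of all genes tested. The part of cell composition in the order of the surfactant genes was not tested.

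**Figure D4:**
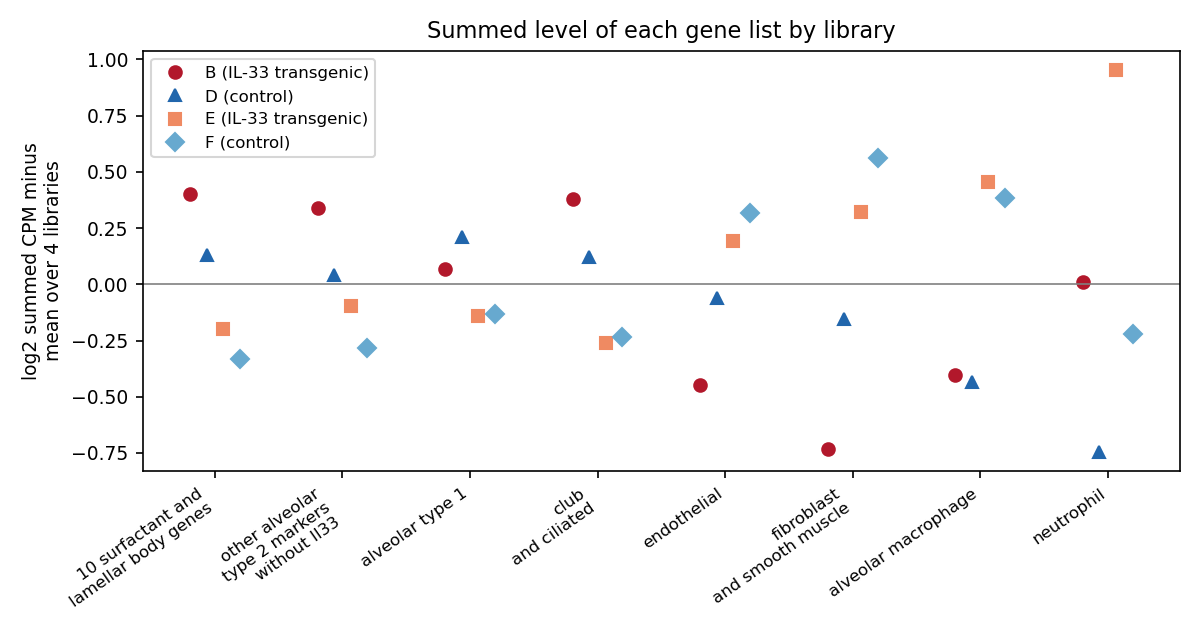
Log2 of the summed CPM of each list of genes, centred on its mean over the 4 libraries, with 1 point per library. The 10 surfactant and lamellar body genes and the other type 2 markers run from B at the top to F at the bottom, and the endothelial and fibroblast lists run from F at the top to B at the bottom.

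The genes closest to the mean profile of the 10 were sought among 4593 others with a mean of at least 50 CPM. Closeness was the root mean square distance of centred log2 CPM over the 4 libraries, which is a description of 4 points. The nearest were Lcn2 (0.0089), Plekhb2 (0.014), Npc2 (0.0152), Lpcat1 (0.0189) and Serpinb9 (0.0217). The members themselves lay from 0.0287 (Napsa) to 0.171 (Lyz2) from their own mean. Lcn2, encoding the siderophore-binding protein lipocalin 2, stood at 92.0 (B), 68.4 (E), 77.9 (D) and 61.0 CPM (F).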

How the data were processed

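TopHat2 version 2, Bowtie version 1, featureCounts version 1 and the mouse build GRCm38 (mm10) were used, per the submitters' processing notes. Annotation release, strand setting and handling of multiply matching reads are not stated in these sources. The authors deposited 1 table with raw, whole-number read counts for each gene and library. The deposited RPKM values divide each count by the table's gene length and by a total of which the gene counts are 80.3% to 82.7%. They were used to compare levels between genes. The mitochondrial chromosome had 0 counts in every library, so this sign of RNA quality could not be read. Symbols of list genes were matched by Ensembl identifier to GENCODE M21 names (42462 of 43346). No 2 libraries agreed within sampling noise (chi-square per gene from 19.6 for E and F to 175 for B and F, with 62.9 for B and D).

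Genes passing filterByExpr (minimum count 10 and minimum total 15) were scaled by TMM and tested with edgeR 4.0.16 in R 4.3.3 (quasi-likelihood, legacy setting, transgenic against control, no covariate), with Benjamini-Hochberg adjustment over all 20872 genes. Standard errors were taken from the fold change and its F statistic, and intervals use the fit's degrees of freedom. CPM values are TMM-scaled, while shares use unscaled counts. Alternatives were DESeq2 size factors, scaling without the 10 genes, no filter or 1 CPM in 2 libraries, the fit without the legacy setting, DESeq2 1.42.0, limma-voom (limma 3.58.1) and each library left out. The fit was also run on simulated counts with the same dispersion for all genes. That run does not show what the fit could detect in these libraries.

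The genes, lists and alternatives were chosen with earlier results of these data known. Leaving Il33 out of the type 2 list was added after seeing its values. Named genes were all 10 members; per pathway list the 3 most abundant genes and the 2 with the smallest p; per marker list the most abundant; and the 5 genes nearest in profile. Marco, Siglecf, Chil3, Abcg1, Fabp4, Ccr7, Ccl22, Apol7c, Fscn1, Zbtb46, Cd83, Flt3, Relb, Hc and Ank3 were named after their values were seen. Libraries B and D were set against E and F after the values were seen too. Promoters are from RefSeq (GRCm38.p6), which held 6 of the 10 genes.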

Additional observations from a re-analysis of the deposited data

How the results depend on the processing

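The direction of each of the 10 log2 fold changes, and the absence of a call, held under all 7 alternatives that kept the 4 libraries (70 of 70 values). The direction turned for 7 of the 10 under at least 1 left-out library: the log2 fold changes then ran from -0.0722 to 0.32 for Sftpb, -0.0145 to 0.44 for Napsa, -0.13 to 0.51 for Ctsh, -0.13 to 0.12 for Lyz2, -0.0069 to 0.50 for Sftpa1, -0.0663 to 0.45 for Sftpd and -0.20 to 0.54 for Sftpc. Those of Slc34a2, Lamp3 and Abca3 stayed above 0. The difference in the summed share ran from -0.286 to 1.68 percentage points, the lowest without library B. In none of these fits was any of the 10 called. Over all genes, 0 were called, 1 (Il33) with DESeq2, and 0 to 15 with 1 library left out, the most without library E. Where 1 library is left out, the lone library of its group is assumed to vary like the other group. No paired analysis was possible because the labels name the libraries by letters and give no replicate numbers that pair them. Each of the 10 genes had at least 39671 counts in every library.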

Other observations

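Cldn18, a claudin gene of alveolar tight junctions, parted the libraries as the share of Sftpc among the 10 genes did: it stood at 967 CPM in B and 937 in D, against 582 in E and 553 in F. How many of all genes tested did so in CPM was not counted. Cldn18 was chosen after its values were seen. Of the 16 type 2 markers without Il33, 2 lay above both controls in both transgenic libraries, beside 11.9% of all genes tested. These were Hc and Ank3. Hc, encoding complement component C5, stood at 374 CPM in B and 304 in E against 230.4 in D and 241 in F.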
